A study of Mus musculus with 11 samples.

Results

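Transcripts of 7 genes that mark the 2-cell-like state of mouse embryonic stem (ES) cells were followed through 11 libraries. The genes, taken by name, were Zscan4c, Zscan4d, Zscan4f, Tcstv1, Tcstv3, Usp17lc and Zfp352, out of 30244 gene symbols listed in any of the tables. Zscan4c, Zscan4d and Zscan4f, counted together, are written Zscan4c/d/f.

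A small and changing minority of cultured mouse ES cells passes for a time through a state that resembles the late 2-cell embryo, when the mouse genome is first broadly transcribed. The Zscan4 genes encode nuclear proteins with a SCAN domain and zinc fingers, and their brief bursts in ES cells are known to accompany telomere lengthening by recombination. Tcstv1 and Tcstv3 belong to a family transcribed at the 2-cell stage, Usp17lc encodes a deubiquitinase, and Zfp352 encodes a zinc-finger protein of the 2-cell embryo. The transcription factor DUX and its upstream activators DPPA2 and DPPA4 switch such genes on, while chromatin proteins such as TRIM28 and the CAF-1 complex hold them off.

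The study compared ES cells in soft agarose microgels with cells on tissue-culture plastic, and wild-type cells with cells overexpressing plakoglobin, the junction protein encoded by Jup. Bulk RNA was measured with Smart-seq2 in 3 gel and 3 plastic libraries of about 1000 cells each, all of the line Rex1GFPd2 in 2i/LIF, a medium with MEK and GSK3 inhibitors and the cytokine LIF. Single cells were measured with inDrop, which encapsulates cells in droplets and tags every captured transcript with a unique molecular identifier (UMI), with 1 library for each of 5 conditions. Wild-type E14 cells came from serum/LIF on plastic, 2i/LIF on plastic and serum/LIF in gels. The other single-cell libraries held lines labelled with high and low Jup overexpression under the constitutive CAG promoter, also grown on plastic with serum and LIF. JupHigh and JupLow below stand for the libraries labelled so. Levels are UMIs scaled to 1000000 UMIs per library (CPM). Jup was at 47.8 CPM (41.5 to 54.8) in the library labelled JupHigh and at 37.9 (31.1 to 45.7) in that labelled JupLow, against 36.7 in wild-type cells on plastic with serum and 46.7 with 2i. The Jup counts thus do not clearly bear out the labels, and directions drawn from JupHigh and JupLow refer to the labels. The labels name neither their parent line nor the number of clones.

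Barcodes with at least 1000 UMIs were counted as cells, which gave 725 in wild-type serum/LIF plastic, 2889 in 2i/LIF, 112 in the gel, 1200 in JupLow and 2153 in JupHigh. Median depth ranged from 1731.5 UMIs per cell in the gel to 2465 in 2i/LIF. No barcode was shared between any of the 10 pairs of libraries. With 1 library per condition no single-cell difference has a replicate check, and all intervals given are 95% intervals for counting error only. The tables did not list the same genes: all 7 members had a column in JupHigh, 6 in JupLow, wild-type serum/LIF plastic and the gel (none for Tcstv1), and 3 in 2i/LIF (Zscan4c, Zscan4f and Zfp352). All 8 ES-cell markers of the marker list were detected in every single-cell library but wild-type serum/LIF plastic, whose table had no Sox2 column. Markers of primitive endoderm summed to 887 CPM in wild-type serum/LIF plastic and to 40.6 to 186 in the other libraries. Trophoblast markers, which include the simple keratins Krt8 and Krt18, summed to 815 in wild-type serum/LIF plastic and 886 in JupLow but to 47.1 to 237 elsewhere. Fibroblast markers summed to 39.2 and 27.5 in those libraries and to 2.90 to 4.87 elsewhere.

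In the GENCODE M21 annotation of GRCm38, the 3 Zscan4 members lie in a cluster of 9 Zscan4 genes and pseudogenes that spans 819.9 kb of chromosome 7. Zscan4c occupies chr7:11005745-11010547 on the plus strand, Zscan4d chr7:11161374-11166159 on the minus strand and Zscan4f chr7:11397915-11402318 on the plus strand. Usp17lc lies at chr7:103415072-103419880 and Zfp352 at chr4:90218820-90225702, both on the plus strand. Tcstv1 lies at chr13:119893388-119894785 on the minus strand and Tcstv3 at chr13:120316878-120318178 on the plus strand. All 7 are annotated as protein coding. The Zscan4 copies are nearly identical. Over their overlap, the longest transcripts of Zscan4c and Zscan4d were 97.1% identical, those of Zscan4c and Zscan4f 97.0% and those of Zscan4d and Zscan4f 95.3%. Of the windows of 50 bases in the transcript, 85.5% of those of Zscan4c, 49.6% of Zscan4d and 95.3% of Zscan4f occur unchanged in another gene of the cluster. The same share against any other gene was 44.7% for Usp17lc, 31.4% for Tcstv3, 16.8% for Tcstv1 and 7.09% for Zfp352. Within the last 500 bases of the transcript it was 68.3% for Zscan4c, 51.4% for Zscan4d and 100% for Zscan4f. There it was 8.43% for Usp17lc, 17.3% for Tcstv3, 19.1% for Tcstv1 and 3.99% for Zfp352. Reads may therefore have been assigned to the wrong copy, so Zscan4 members are given both singly, as deposited, and as a sum.

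RefSeq promoters (GRCm38.p6) were at hand for 5 of the 7 members. The 250 bases before the start are shown for the Zscan4 members, because they are near-identical copies, and for Zfp352, the member whose transcript shares least with other genes. In the Zscan4 sequences the capitals mark TATAAA, in Zfp352 TAATCC. The windows are chr7:11005495-11005744 (plus strand), chr7:11166149-11166398 (minus strand), chr7:11397665-11397914 (plus strand) and chr4:90218570-90218819 (plus strand).
Zscan4c: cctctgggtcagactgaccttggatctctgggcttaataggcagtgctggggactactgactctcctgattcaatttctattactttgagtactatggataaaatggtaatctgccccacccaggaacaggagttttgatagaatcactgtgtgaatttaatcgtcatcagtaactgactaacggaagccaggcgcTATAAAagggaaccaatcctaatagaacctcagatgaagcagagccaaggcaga
Zscan4d: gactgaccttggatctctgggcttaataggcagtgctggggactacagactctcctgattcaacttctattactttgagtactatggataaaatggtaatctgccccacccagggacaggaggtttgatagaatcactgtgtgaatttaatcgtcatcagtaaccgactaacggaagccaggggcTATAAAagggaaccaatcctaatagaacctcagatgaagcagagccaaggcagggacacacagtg
Zscan4f: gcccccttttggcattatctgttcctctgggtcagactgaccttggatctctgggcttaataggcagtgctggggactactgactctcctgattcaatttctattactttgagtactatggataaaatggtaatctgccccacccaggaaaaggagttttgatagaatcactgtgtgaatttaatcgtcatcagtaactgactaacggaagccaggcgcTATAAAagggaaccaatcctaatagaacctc
Zfp352: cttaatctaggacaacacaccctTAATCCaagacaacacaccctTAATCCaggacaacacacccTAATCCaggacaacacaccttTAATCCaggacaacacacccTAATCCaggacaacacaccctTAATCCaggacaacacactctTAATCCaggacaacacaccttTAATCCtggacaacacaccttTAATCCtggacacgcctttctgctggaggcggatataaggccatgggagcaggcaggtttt

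The 3 Zscan4 windows share nearly the same letters, shifted by differences in the annotated start. Over the overlap, Zscan4c and Zscan4f were identical at 226 of 227 positions, Zscan4c and Zscan4d at 232 of 239. Each holds 1 TATAAA, and 12.4% of the 32851 promoter windows in the table hold at least 1, searched on both strands. The first base of the match lies 54 bases before the start in Zscan4c, 65 in Zscan4d and 31 in Zscan4f. Zfp352 holds no TATAAA but 9 copies of TAATCC spaced along a repeat. At least 1 TAATCC was present in 6.25% of all windows and at least 3 in 0.0244%, or 8 windows. TGCACAC, a sequence reported to be bound by ZSCAN4, matched in none of these 4 windows, and in 3.67% of all windows.

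Zscan4c/d/f transcripts were most abundant in JupHigh and close to absent in wild-type 2i/LIF. Zscan4c had 82 UMIs in JupHigh, 12 in wild-type serum/LIF plastic, 3 in JupLow and 1 each in 2i/LIF and the gel. Zscan4d had 103 UMIs in JupHigh, 15 in wild-type serum/LIF plastic, 10 in JupLow and 0 in the gel, and no column in 2i/LIF. Zscan4f had 117 UMIs in JupHigh, 18 in wild-type serum/LIF plastic, 10 in JupLow, 3 in the gel and 2 in 2i/LIF. Scaled to library size, each of the 3 genes was highest in JupHigh, at 19.02, 23.9 and 27.1 CPM, whereas Zscan4f in the gel, at 12.7 CPM on 3 UMIs, stood above its 8.92 CPM in wild-type serum/LIF plastic.

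The summed Zscan4c/d/f level was 70.1 CPM in JupHigh (62.4 to 78.4), 22.3 in wild-type serum/LIF plastic (16.3 to 29.8) and 16.9 in the gel (4.61 to 43.4). It was 7.99 in JupLow (5.07 to 11.99) and 0.362 in 2i/LIF (0.0747 to 1.06). The intervals of wild-type plastic and gel overlapped, and so did those of the gel and JupLow. JupHigh and 2i/LIF lay outside the intervals of all other libraries. These intervals treat UMIs as independent, whereas the UMIs came together in few cells. In wild-type serum/LIF plastic 1 cell held 97.8% of them. The intervals, and those of the ratios below, do not cover the spread between cells. Neither their overlap nor its absence therefore tells libraries apart. The full set of 9 Zscan4 genes and pseudogenes, whose sum does not depend on how reads were split between these copies, kept JupHigh highest and 2i/LIF lowest. It summed to 198.3 CPM in JupHigh (855 UMIs), 57.0 in wild-type serum/LIF plastic (115), 50.8 in the gel (12), 16.7 in JupLow (48) and 0.966 in 2i/LIF (8), where only 3 of the 9 had a column.

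**Figure D1:**
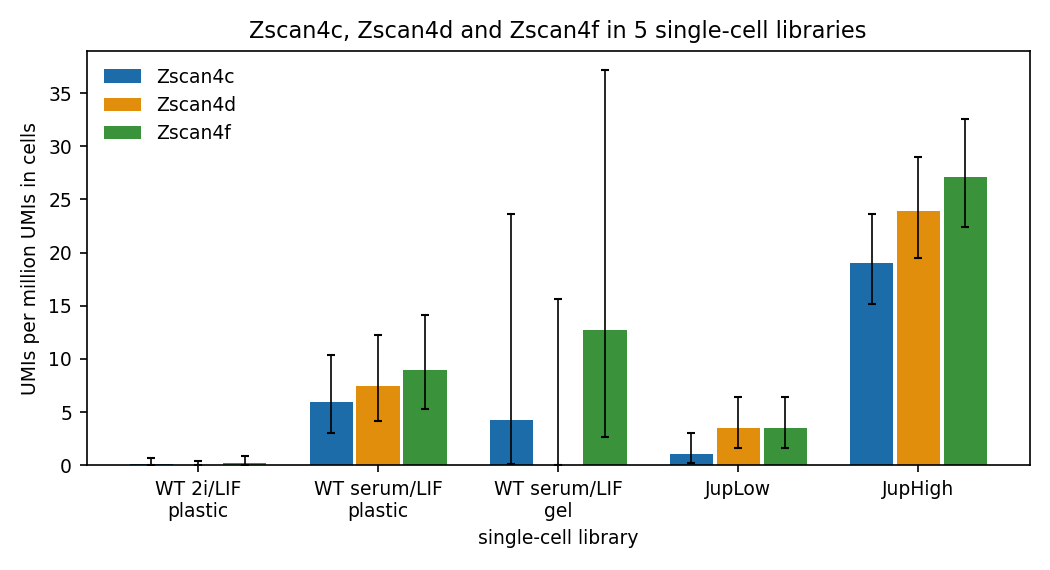
Level in CPM (UMIs per 1000000 UMIs in cells, y axis) of Zscan4c, Zscan4d and Zscan4f in each single-cell library (x axis). Bars are the level of the 1 library per condition and error bars are exact 95% Poisson intervals for counting error; in JupHigh the bars stand between 19.02 and 27.1, and the gel bars rest on 4 UMIs in all. Zscan4d has no column in 2i/LIF and is drawn there at 0.

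As a log2 ratio of levels, Zscan4c/d/f in JupHigh exceeded JupLow by 3.13 (2.52 to 3.81, or 8.77-fold), wild-type serum/LIF plastic by 1.65 (1.20 to 2.14) and 2i/LIF by 7.60 (6.03 to 9.88). JupLow over wild-type serum/LIF plastic gave -1.48 (-2.27 to -0.73), 2i/LIF over the same library -5.94 (-8.28 to -4.31), and gel over plastic -0.40 (-2.33 to 1.06). In cells with at least 2000 UMIs JupHigh over wild-type serum/LIF plastic was 0.50 (-0.03 to 1.05), and over every deposited barcode JupLow over wild-type serum/LIF plastic was -0.16 (-0.63 to 0.31), so both intervals then included 0. For Zscan4c and Zscan4f alone, the members with a column in 2i/LIF, JupHigh over 2i/LIF was 6.99 (5.43 to 9.28) and 2i/LIF over wild-type serum/LIF plastic -5.36 (-7.72 to -3.67). Several of these ratios share a library and are not independent of each other. The ratios against wild-type serum/LIF plastic rest on a single cell of that library. Without the cell with the most Zscan4c/d/f UMIs in each library, wild-type plastic stood at 0.496 CPM, on 1 UMI. JupLow over wild type then turned to 2.95 (0.16 to 8.37), and JupHigh over JupLow was 3.98 (3.12 to 5). Without the 10 such cells of JupHigh alone, JupHigh over JupLow was 1.01 (0.31 to 1.76) and JupHigh over wild-type serum/LIF plastic turned to -0.47 (-1.03 to 0.10). The other-lineage markers given above differ between the same libraries, and their part in these ratios was not tested.

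Few cells of each library held a Zscan4c/d/f UMI. In 2i/LIF and the gel there were only 3 and 4 such UMIs in all, so a low number of positive cells was fixed by the count. In JupHigh, 54 of 2153 cells had at least 1 Zscan4c/d/f UMI, a share of 2.51% (1.89% to 3.26%, exact binomial). In wild-type serum/LIF plastic it was 2 of 725 (0.276%, 0.0334% to 0.993%), in JupLow 11 of 1200 (0.917%, 0.459% to 1.63%), in 2i/LIF 2 of 2889 (0.0692%, 0.00839% to 0.250%) and in the gel 3 of 112 (2.68%, 0.556% to 7.63%). After every cell was thinned to 1000 UMIs the shares were 1.81% in JupHigh, 0.276% in wild-type serum/LIF plastic, 0.75% in JupLow, 0.0346% in 2i/LIF and 2.68% in the gel. By share of cells the intervals of the gel and JupHigh overlapped, as did those of wild-type serum/LIF plastic, second by level, with those of JupLow and 2i/LIF.

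UMIs per positive cell separated these libraries in another way. In wild-type serum/LIF plastic 1 cell held 44 of the 45 UMIs and the other positive cell held 1. That cell had 3066 UMIs in all, with 11 of Zscan4c, 15 of Zscan4d and 18 of Zscan4f, and 109 of the whole Zscan4 family. In JupHigh the maximum was 42 and the mean 5.59, but the median was 1. There, 32 cells with a single UMI held 10.6% of the UMIs, whereas the 10 cells with 10 or more held 77.2%. In JupLow 1 cell held 12 of 23 UMIs and 9 cells held 1 each. No cell of 2i/LIF or of the gel held more than 2. The median depth of positive and negative cells in JupHigh was 2018 and 1900 UMIs.

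**Figure D2:**
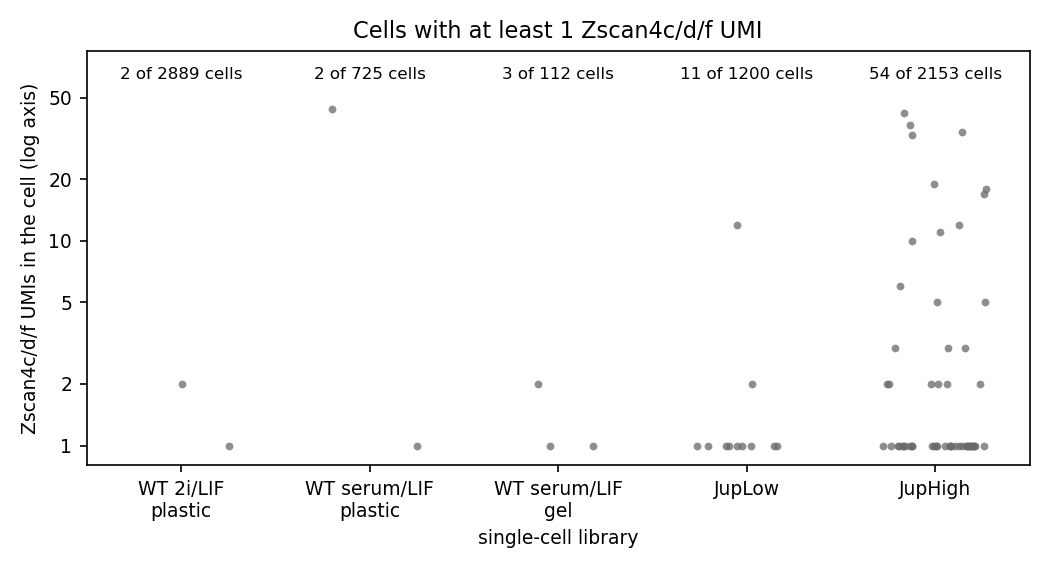
Each point is 1 cell with at least 1 Zscan4c/d/f UMI, placed by its number of these UMIs (y axis, log scale) within its single-cell library (x axis, horizontal jitter only for visibility). The numbers above give positive cells of all cells; JupHigh has 10 cells at 10 or more, wild-type serum/LIF plastic and JupLow 1 each, and 2i/LIF and gel none.

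Barcodes with fewer than 500 UMIs may hold free RNA or poorly captured cells, and which of these they hold was not tested. In JupHigh 43 of 1343 such barcodes (3.20%) had a Zscan4c/d/f UMI, at a median depth of 429 UMIs, and their level was 84.6 CPM (62.6 to 111.9). The share in JupHigh cells, 2.51% at a median of 1902 UMIs, was thus no higher than in these barcodes. If such barcodes hold free RNA, a single UMI need not come from its cell. Cells with 1 UMI are therefore not read as expressing the genes. The highest count in these barcodes was 6, and 2 of them had more than 1 UMI, against 22 of the 2153 cells. In wild-type serum/LIF plastic 18 of 5905 such barcodes (0.305%) had a UMI, with none above 1, and in JupLow 25 of 4405 (0.568%) did, with none above 2. The depths differ, so the same number of UMIs stands for a higher level in these barcodes than in cells. In the gel 4 of 439 (0.911%) did, and the level was 21.9 CPM in these barcodes (5.97 to 56.1) and 16.9 in its cells. The 2i/LIF table held 1 such barcode, so its 2 positive cells have no comparison of this kind.

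At the upper end, Zscan4 transcripts took a large share of a cell's RNA. The JupHigh cell richest in the family carried 136 Zscan4 UMIs among 1404, with 47 of Zscan4-ps3, 33 of Zscan4a and 21 of Zscan4f. The 4 JupHigh cells with the most Zscan4c/d/f UMIs held 42, 37, 34 and 33 of them. Of the 54 positive cells 35 had 1 of Zscan4c, Zscan4d and Zscan4f, 7 had 2 and 12 had all 3. The 32 cells with a single UMI could show only 1 of these genes. Of the 22 cells with at least 2 UMIs, 19 had 2 or more of the genes, though reads can be exchanged between these copies. Another Zscan4 gene or pseudogene was present in 33 of the 54. A further 38 cells had a UMI of another Zscan4 gene without any of Zscan4c/d/f.

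The other 4 members were near the limit of detection. Usp17lc had 9 UMIs in JupHigh (6 cells), 5 in JupLow (2 cells) and 1 in wild-type serum/LIF plastic. JupHigh over JupLow gave a log2 ratio of 0.27 for it (-1.47 to 2.19), so no difference was detectable at this depth. Tcstv3 had 4 UMIs in 2 JupHigh cells and 1 UMI in wild-type serum/LIF plastic, in the same cell that held 44 Zscan4c/d/f UMIs. Tcstv1 had 1 UMI, in JupHigh, in a cell with 2 Zscan4c/d/f UMIs. Zfp352 had 3 UMIs in 1 cell of JupHigh, and 2 UMIs each in JupLow and in 2i/LIF, in 2 cells of each. Tcstv3, Usp17lc and Zfp352 had no UMI in the gel, where 0 of 112 cells has an exact binomial upper bound of 3.24%. A floor of 3 cells stands at 2.68%. Both concern cells with a UMI and do not limit the share of cells expressing the gene.

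In JupHigh 7 cells had a UMI of these 4 genes, and 6 of them were Zscan4c/d/f-positive. A single cell held all 3 Zfp352 UMIs, 3 of the 9 Usp17lc UMIs and 2 of the 4 Tcstv3 UMIs. That cell had 1461 UMIs, of which 3 were Zscan4f and none Zscan4c or Zscan4d, and it had 21 of Gm5662 and 38 of Gm4340, gene models of the list of 2-cell-like associated genes. Of the 10 cells with 10 or more Zscan4c/d/f UMIs, 4 held Usp17lc, with 5 of its 9 UMIs, 1 held Tcstv3, and none held a Zfp352 or Tcstv1 UMI. In JupLow 4 cells had a UMI of the 4 genes, of which 1 was Zscan4c/d/f-positive.

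**Figure D3:**
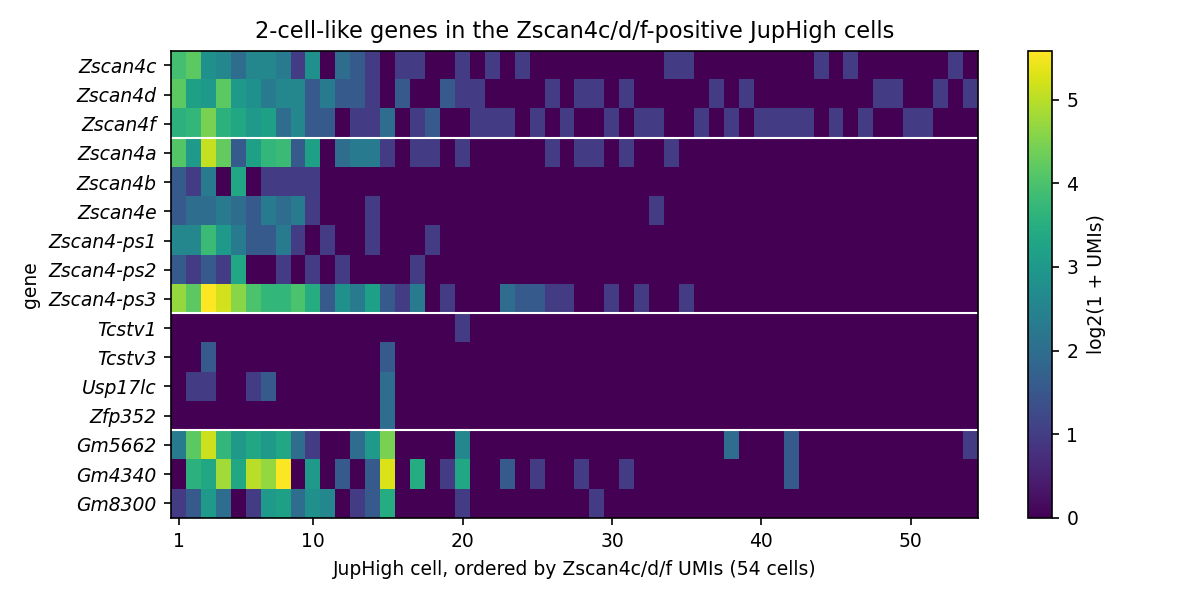
Each column is 1 of the 54 Zscan4c/d/f-positive JupHigh cells, ordered from most to fewest Zscan4c/d/f UMIs, and each row a gene; colour gives log2(1 + UMIs). Rows are the 3 Zscan4 members, 6 further Zscan4 genes and pseudogenes, the other 4 members, and 3 gene models of the 2-cell-like list; the first 10 columns, with 10 or more UMIs, hold most of the Zscan4 signal, and Zfp352 appears in 1 column further right.

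Across the 2153 JupHigh cells the 10 genes most like Zscan4c/d/f were 5 Zscan4 copies, 4 gene models of the 2-cell-like list and Gm8764, which is not on the list. Likeness was Pearson's r over cells on log2(1 + UMIs per 10000), a description without a p, since the cells share a library and depth. Of 12513 genes with at least 10 UMIs, the 10 highest that were no members were Zscan4-ps3 (0.774), Zscan4a (0.730), Zscan4-ps1 (0.717), Zscan4e (0.671), Gm6763 (0.642), Gm5662 (0.632), Gm4340 (0.623), Zscan4b (0.618), Gm8300 (0.615) and Gm8764 (0.603). The median over all genes was -0.0085. The reads of the Zscan4 copies can be exchanged with those of the members. The Gm gene models are on other sequences, but whether reads can be exchanged among these models was not tested. They may therefore not count as separate genes. Gm5662 had 175 UMIs in 42 cells, and 146 of them were in the 17 that were Zscan4c/d/f-positive. Gm4340 had 257 UMIs in 39 cells, with 234 in 19 positive cells. Without the 10 JupHigh cells with the most Zscan4c/d/f UMIs, 6 of the 10 genes stayed among the 10 highest, and 6 also did so in cells with at least 2000 UMIs.

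In 2i/LIF the same ranking rested on 2 positive cells with 3 UMIs. Its 10 highest genes were Prss16, Rasgrp4, Mroh8, Gm11675, Adamts17, 9130230L23Rik, Nsun7, Tmem159, Parp6 and Trim63, at r from 0.354 to 0.175. Each of them had 1 UMI in those cells, and none was shared with JupHigh. A gene needed at least 10 UMIs, and Zscan4-ps3 had 5, Gm5662 4, and Gm4340 and Gm6763 1 each. Zscan4a, Zscan4-ps1, Zscan4e, Zscan4b and Gm8300 had no column, so none of these JupHigh genes could be shared. The cell with 2 Zscan4f UMIs also held 2 of Zscan4-ps3, 2 of Gm5662 and 1 of Gm4340. The ranking thus describes 2 cells and cannot show a gene pattern.

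Within JupHigh, Zscan4c/d/f-positive cells also held pluripotency transcripts. The positive group includes the 32 cells with a single UMI, which can draw its levels toward those of the negative cells. Cells with more Zscan4c/d/f UMIs were not compared apart. Pou5f1, which encodes OCT4, was at 406 CPM in positive and 477 in negative cells, a log2 ratio of -0.23 (-0.68 to 0.19). Sox2 was at 277 and 355, and Dppa5a at 994 and 919, and the intervals of their ratios included 0. Nanog was higher in positive cells, at 648 against 444.3 (0.54, 0.19 to 0.88), and so was the Nodal co-receptor gene Tdgf1 (0.55, 0.08 to 0.99). Zfp42, which encodes REX1, was lower, at 544 against 745 (-0.45, -0.84 to -0.09), as was Klf2 (-0.51, -1.04 to -0.03). These differences are within 1 library, and no correction was made for the number of genes looked at. Here and for the genes that follow, UMIs were pooled over cells, so the intervals do not cover the spread between cells. The 38 cells with a UMI of another Zscan4 gene only were counted as negative.

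Among genes listed as activators of the 2-cell-like state, Nelfa, which encodes a subunit of the negative elongation factor, stood at 372 CPM in positive and 83.7 in negative cells (2.15, 1.66 to 2.61) and was seen in 18 of the 54. Dppa2 was at 164 and 104 (0.65, -0.09 to 1.31) and Dppa4 at 86.4 and 128 (-0.57, -1.64 to 0.32). Of the 2-cell-like associated list, Fbxo15, an F-box gene of ES cells, was at 484 and 109 (2.15, 1.73 to 2.56). Among the repressors, Trim28 was at 1227 and 1306 (-0.09, -0.34 to 0.15). Uhrf1, which guides maintenance DNA methylation, was at 51.8 and 135 (-1.38, -2.84 to -0.25), on 6 UMIs in positive cells, and Dnmt1, the maintenance methyltransferase, at 60.5 and 119 (-0.98, -2.30 to 0.08). Of the telomere genes, Terf1 was at 268 and 288 (-0.11, -0.67 to 0.41). Terf2, which encodes a shelterin protein, had 0 UMIs in positive and 213 in negative cells, where it was at 50.8 CPM. The upper bound in positive cells was 31.9. Terf2 is 1 of 17 telomere and recombination genes listed, and no correction was made for their number. Other genes of that list leaned the other way with intervals that included 0, so Terf2 does not stand for the list.

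The wider list of 73 genes associated with the 2-cell-like state was compared between libraries for the members of the list with at least 10 CPM in either library, with 0.5 UMIs added to each count before the ratio. A gene that reaches this level through 1 library only is likely to differ by 2-fold, so the counts describe the libraries and support no difference. Between JupHigh and JupLow, 18 genes reached that level, of which 11 were at least 2-fold higher in JupHigh and 2 at least 2-fold lower, where 3.18% of all 9309 genes at that level were higher and 9.97% lower. Of the 11 higher genes, 10 were under 10 CPM in JupLow and so reached the level through JupHigh only. Higher genes included Zscan4a (36.0 against 2.78 CPM), Zscan4-ps3 (63.1 against 4.17), Gm5662 (40.6 against 2.09) and Gm4340 (59.6 against 5.21). The lower genes were Rnf213 (3.48 against 20.5) and Zfp365 (10.2 against 28.8). Eif1a, Eif1ad and Pramef12 differed by less than 0.2 on the log2 scale. Without the 10 JupHigh cells with the most Zscan4c/d/f UMIs, 4 of 12 genes were higher. The members at 10 CPM were Zscan4c, Zscan4d and Zscan4f, which reached it through JupHigh only.

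Against wild-type serum/LIF plastic, 20 genes of the list reached the level in JupHigh or wild type, with 9 higher in JupHigh and 4 lower (background 8.47% and 17.4%). Against 2i/LIF, 17 genes reached it, with 10 higher in JupHigh and 2 lower (background 4.66% and 7.02%), and all 10 higher genes were under 10 CPM in 2i/LIF. Of these 10, 5 had no column in the 2i/LIF table (Zscan4a, Zscan4-ps1, Gm8300, Gm21761 and Gm4027), which lists 28 of the 73 genes. The 9 include Gm6763, which had 262 UMIs in JupHigh and no column in the wild-type table, which bears on the gel comparison too. In 2i/LIF against wild-type serum/LIF plastic, 11 genes reached it, with 3 higher, namely Calcoco2, Fbxo15 and Pramef12, and 5 lower, including Zscan4-ps3 and Ddit4l (background 12.0% and 18.1%). In JupLow against wild-type serum/LIF plastic 10 reached it, with 0 higher and 3 lower (background 6.55% and 8.68%). Gel against plastic gave 13, with 3 higher and 2 lower (background 12.0% and 14.3%). The higher genes were Gm4340, with 10 gel UMIs of which 9 lay in 1 cell, Gm6763, with 13 of which 12 lay in 1 cell, and Gm20767, with 6 in 5 cells. Pramef12, with 1 UMI in the gel, was at 4.23 against 12.39 CPM and missed 2-fold through the added 0.5 UMIs, at a log2 ratio of -0.99.

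The listed activators and repressors were mostly within 2-fold between the Jup libraries, where 3.18% of all genes were higher and 9.97% lower in JupHigh. Of 10 activators at 10 CPM, 1 was at least 2-fold higher in JupHigh than in JupLow and none lower. This was Tbx3, a T-box gene of naive ES cells, at 51.5 against 12.51 CPM. Of 18 repressors, 1 was higher, Zfp42, at 739 against 239. Of 11 telomere and recombination genes, 0 passed 2-fold in either direction. Of 12 pluripotency genes 8 were higher in JupHigh and 0 lower, and all 8 reached 10 CPM in both libraries. In 2i/LIF against wild-type serum/LIF plastic, 10 activators reached 10 CPM, with 2 at least 2-fold higher and 3 lower (background 12.0% and 18.1%). Among them Dppa2 was at 37.5 against 104 CPM and Dppa4 at 53.2 against 175, while Tbx3 was at 105 against 19.8.

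In bulk RNA, Zscan4c and Zscan4f were the members in the table, and their values swung between replicates of the same condition. The deposited values, counts divided by a factor per library, are given first. Zscan4c was at 40.6, 0 and 0 in gel replicates 1 to 3 and at 0.831, 50.1 and 12.1 in plastic replicates 1 to 3. Behind these values lie 36 reads in gel replicate 1, none in the other gel replicates, and 2, 128 and 8 reads on plastic. Zscan4f was at 70.0, 0 and 0 in gel and at 0.416, 55.96 and 13.7 in plastic, from 62 gel reads in all and 1, 143 and 9 plastic reads. Both genes were thus high in gel replicate 1 and plastic replicate 2, at 0 in the other gel replicates and near 0 in plastic replicate 1, and gel and plastic overlapped for both, where 49.5% of the tested genes had groups that did not overlap. In bulk RNA, fewer positive cells and less RNA per positive cell cannot be told apart.

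**Figure D4:**
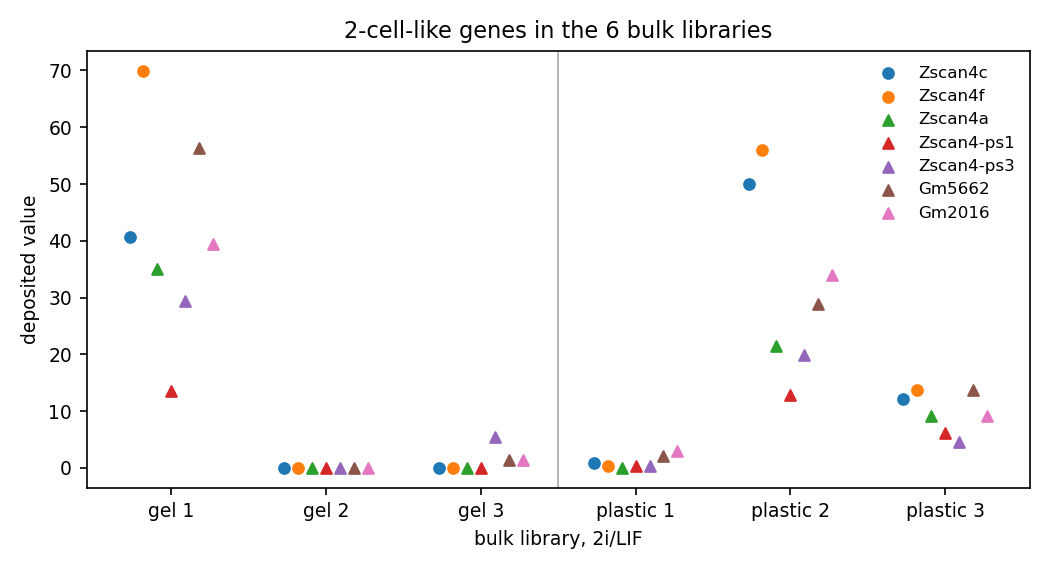
Deposited value (y axis, linear, counts divided by a factor per library) of Zscan4c, Zscan4f and 5 of the 22 list genes in the table, chosen after their values were seen, in each of the 6 bulk libraries in 2i/LIF (x axis; gel left and plastic right of the line). The plotted genes are high together in gel 1 and plastic 2. Other than Zscan4-ps3, they are intermediate in plastic 3 and at or near 0 in the remaining libraries. Zscan4-ps3 is at 5.497 in gel 3 and 4.554 in plastic 3.

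The means were 13.5 ± 23.5 in gel and 21.02 ± 25.8 in plastic for Zscan4c, and 23.3 ± 40.4 and 23.35 ± 29.01 for Zscan4f (SD, n = 3 each). limma with Benjamini-Hochberg adjustment over 7878 genes gave a log2 fold change, on the log2(value + 0.5) scale, of -2.12 for Zscan4c (SE 1.34, adjusted p = 0.224) and -1.79 for Zscan4f (SE 1.48, adjusted p = 0.359). The size of the fold change depends on how 0 reads are treated. With a constant of 1 it was -1.63 for Zscan4c and -1.35 for Zscan4f, with 0.1 it was -3.49 and -3.05, and edgeR's quasi-likelihood test on the recovered reads gave -0.68 (adjusted p = 0.463) and -0.06 (adjusted p = 0.957). Neither of the 2 members passed the threshold of 0.05, where 36.9% of the tested genes did. The call depended on single libraries: without gel replicate 1 the fold changes were -4.25 and -4.17, with adjusted p = 0.0184 and 0.0287, and without plastic replicate 1 they were -3.54 and -3.44, with adjusted p = 0.0194 and 0.0256. In both cases they passed. Without gel replicate 1, the gel libraries left had 0 reads of both genes, so their log values came from the added constant alone. Plastic replicate 1 was the plastic library with the lowest values of both genes. These calls thus follow from which library was removed and support no difference between gel and plastic.

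Among the tested genes, Zscan4f and Zscan4c had the largest spread between replicates. They passed the expression filter through gel replicate 1 and plastic replicates 2 and 3. Genes that did not pass it have no rank. Zscan4a, at 35.0, 0 and 0 in gel and 0, 21.5 and 9.11 in plastic, is among these. The SD within groups of log2(value + 0.5) was 3.62 for Zscan4f, which ranked 1 among 7878, and 3.20 for Zscan4c, which ranked 2. Gm5662, of the 2-cell-like list, ranked 3 at 2.80. The median over all tested genes was 0.226 and the 99th percentile 0.782. Libraries with 0 reads of these genes enter the log scale through the added constant of 0.5.

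**Figure D5:**
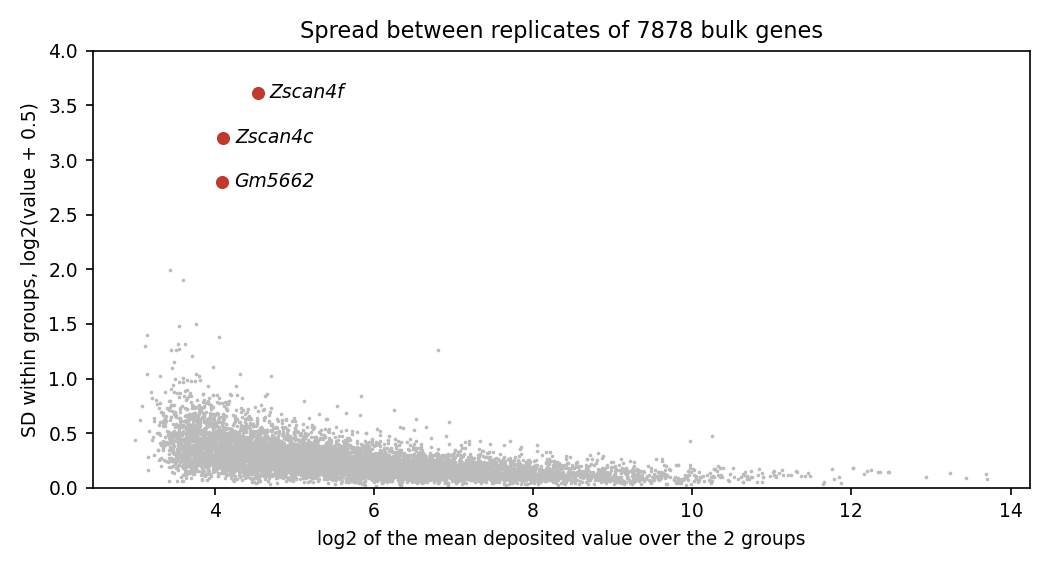
SD within groups of log2(value + 0.5) (y axis) against the log2 of the mean deposited value (x axis) for the 7878 tested bulk genes, 1 point each. Zscan4f, Zscan4c and Gm5662 (red) lie at 3.62, 3.20 and 2.80, apart from the other genes (grey), whose median is near 0.226.

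Some genes of the 2-cell-like list were high in the same bulk libraries. Gel replicate 1 and plastic replicate 2 both lay above gel replicates 2 and 3 and plastic replicate 1 for 10 of the 22 list genes in the table (45.5%), 3 of them Zscan4 copies, where 614 of all 12588 genes (4.88%) did so. Without the Zscan4 copies, 7 of 19 list genes (36.8%) did so. This order was looked for after the values of Zscan4c and Zscan4f were seen. The list was chosen with earlier results of these data known, so these shares are a description and support no common pattern. A gene whose gel and plastic values do not overlap cannot have this order, which lowers the share over all genes. Some list genes with it had few reads, such as Gm4340 with 4 in gel replicate 1. Eif1a, Calcoco2, Fbxo15 and Pramef12 are among the 12 list genes that did not have it. Among the tested genes the one most like the mean of Zscan4c and Zscan4f over the 6 libraries was Sars2, which is not on the list (r = 0.981), followed by Gm5662 (r = 0.964), both given without a p. Reads of all Zscan4 genes and pseudogenes in the table came to 167, 0 and 4 in gel and 5, 410 and 30 in plastic. Scaled to 1000000 recovered reads per library this is 193, 0 and 5.65 in gel and 2.09, 159 and 47.1 in plastic. Gm5662 was at 56.4, 0 and 1.37 in gel and at 2.08, 28.96 and 13.7 in plastic, and Gm2016 at 39.5, 0 and 1.37 and at 2.91, 34.04 and 9.11. Zscan4a was at 35.0, 0 and 0 in gel and at 0, 21.5 and 9.11 in plastic. Recovered reads were 866721, 808903 and 707718 in gel and 2390575, 2583256 and 637235 in plastic, and the part of depth in the pattern was not tested.

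Of the 73 genes of the 2-cell-like list, 22 were in the bulk table and 9 were tested, of which limma called 1 higher in gel and 2 lower, where 18.3% of all tested genes were called higher and 18.6% lower. Pramef12 was higher (log2 1.08, SE 0.397, adjusted p = 0.04). The other calls were Calcoco2 (-0.76, SE 0.0932, adjusted p = 1.12e-05) and the translation factor gene Eif1a (-0.36, SE 0.0976, adjusted p = 0.00736). The median of the 9 was -0.26, against -0.02 for all tested genes. The SD within groups of these called genes was 0.0821 to 0.162. Eif1a, for one, was at 435, 464 and 419 in gel and at 536, 555 and 604 in plastic.

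Some regulators of the state were called between gel and plastic; for the repressors the share called was close to that of all tested genes, 36.9%. Of the 10 tested activators 5 were called higher in gel and 2 lower, and of the 18 tested repressors 6 were higher and 1 lower, where 18.3% of all tested genes were called higher and 18.6% lower. Nelfa was higher in gel (log2 0.57, SE 0.171, adjusted p = 0.0135), as was Tbx3 (1.42, SE 0.323, adjusted p = 0.00222), while Dppa2 was lower (-1.01, SE 0.153, adjusted p = 7.86e-05). Trim28 was at 944, 847 and 785 in gel and at 458, 432 and 418 in plastic (log2 0.98, SE 0.0984, adjusted p = 1.59e-06). None of the 11 tested telomere and recombination genes was called higher, and 1 was called lower. The SD within groups was 0.106 for Trim28, 0.198 for Dppa2, 0.208 for Nelfa and 0.623 for Tbx3.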

How the data were processed

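Smart-seq2 bulk libraries (3 gel, 3 plastic) and 5 inDrop single-cell libraries were analysed from the deposited tables. The authors' bulk signal is, judged from the deposited values, gene counts divided by 1 factor per library. Whole reads were recovered from it (100% of values whole within 0.01 reads). The single-cell values are deposited whole UMI counts per gene and barcode. Per the submitters' processing notes, FastQC, STAR, featureCounts, DESeq2 and Scanpy and the builds mm10 and GRCm38 were used, with no version or role given; strand use in counting is not given in the sources used here. The title numbering of plastic replicate 2 was followed, since its description gives another number.

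Bulk groups were compared with limma 3.58.1 (trend) on log2(value + 0.5) over 7878 of 12588 listed genes that passed edgeR's expression filter, with Benjamini-Hochberg adjustment at 0.05. Only Zscan4c and Zscan4f of the 7 members were in the bulk table. Both passed this filter through gel replicate 1 and plastic replicates 2 and 3, since the other libraries held at most 2 reads of either gene. edgeR 4.0.16 and DESeq2 1.42.0 on the recovered reads were alternatives. On simulated bulk reads with 200 of 7878 genes changed 4-fold, limma recovered 97% and 3% of its calls were false. The simulated spread followed the trend over all genes, so this recovery does not apply to genes as variable as Zscan4c and Zscan4f. Same-numbered gel and plastic libraries did not deviate together (r from -0.0522 to 0.0244), so numbers did not pair them. Nothing in the labels says that replicates were separate cultures, so p-values measure only the spread between these libraries.

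Cells were barcodes with at least 1000 UMIs over named genes, without those starting and ending in 8 or more G; no doublet caller was run. Columns without a gene name (0.00509% to 0.499% of UMIs) and 1 incomplete row of the gel table were left out. Levels are CPM, UMIs per 1000000 UMIs in cells. Intervals are exact Poisson (levels), exact binomial (shares) and exact conditional (ratios) at 95%. PCR duplicates are removed by UMIs, but intervals cover counting error only. Sequences came from RefSeq (GRCm38.p6) and GENCODE M21.

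The 7 members, the 10 genes of highest likeness in JupHigh and in 2i/LIF, and lists of 73 2-cell-like associated genes, 11 activators, 19 repressors, 17 telomere and recombination genes and 12 pluripotency genes were named by rule. Members and lists were chosen with earlier results of these data known. Gm2016, Gm5662 and Zscan4a in bulk, and the single cells described by their gene content, were chosen after their values were seen.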

Additional observations from a re-analysis of the deposited data

Results flagged for a closer look

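The level of Zscan4c/d/f in JupHigh barcodes with fewer than 500 UMIs was 84.6 CPM (62.6 to 111.9, 49 UMIs), which are barcodes outside the cells compared in the report. It stands apart because the same barcodes of wild-type serum/LIF plastic gave 8.29 (4.92 to 13.1, 18 UMIs), those of JupLow 15.8 (10.6 to 22.6, 29 UMIs) and those of the gel 21.9 (5.97 to 56.1, 4 UMIs). The whole Zscan4 family gave 247 CPM in these barcodes of JupHigh, 25.3 in wild-type serum/LIF plastic, 44.0 in JupLow and 82.2 in the gel.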

How the results depend on the processing

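In bulk, none of 12 alternatives moved the count of called genes, 2906, by over 1.5 times (2188 with DESeq2 to 3158 with edgeR); the replicate block gave 2988 and changed no member's call (Zscan4c -2.12, adjusted p = 0.256 and Zscan4f -1.79, adjusted p = 0.39 from limma). DESeq2 turned the log2 fold change of Zscan4f to 0.021 (adjusted p = 0.997) and gave -0.61 for Zscan4c (adjusted p = 0.893). Leaving out 1 library gave -4.25 to -0.92 for Zscan4c and -4.17 to -0.47 for Zscan4f, with adjusted p from limma of 0.0184 to 0.712 and 0.0256 to 0.864; the cause was not tested. Scaling the single-cell libraries by TMM shifted every log2 ratio by 0.02 to 0.28, and 0.11 for JupHigh over JupLow.

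For Zscan4c/d/f levels in CPM, every deposited barcode gave 14.2 in wild-type serum/LIF plastic and 12.7 in JupLow; at least 2000 UMIs gave 38.5 in JupHigh and 0 in the gel; all Zscan4 genes gave 57.0, 50.8 (gel), 16.7 (JupLow) and 198.3 (JupHigh). Without the 1 cell with the most UMIs the levels were 0.496, 8.53 (gel), 0.121 (2i/LIF), 3.83 (JupLow) and 60.3 (JupHigh), and without the 10 such JupHigh cells 16.1. Log2 ratios of JupHigh over JupLow were 2.35 at 2000 UMIs, 2.43 over every barcode, 3.98 without the 1 cell and 1.01 without the 10. JupHigh over wild-type serum/LIF plastic gave 0.50, 2.27, 6.93 and -0.47 in the same order, and over 2i/LIF 5.47 without the 10. JupLow over wild type gave -0.16 over every barcode and 2.95 without the 1 cell, which also moved 2i/LIF to -2.04 (-8.33 to 4.26, on 1 UMI each) and gel to 4.10 (-0.16 to 9.99, on 2 and 1 UMIs) over wild type. For the gel at 2000 UMIs no ratio could be computed.

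Shares of positive cells were 0% in the gel and 0.445% in JupLow thinned to 2000 UMIs, 0% in the gel at 2000 UMIs, 1.81% in JupHigh thinned to 1000, and 0.893% (gel), 0.167% (JupLow) and 1.02% (JupHigh) at 2 UMIs; over cells of 500 UMIs the gel gave 1.11%. UMIs per positive cell moved in wild-type serum/LIF plastic to 6 (thinned to 1000), 44 (positive at 2 UMIs, or cells of 2000), 7.13 (cells of 500) and 15.7 (7 members); in JupLow to 7 (positive at 2) and 3.2 (cells of 2000); and in JupHigh to 4.33 and 2.84 (thinned to 1000 and 2000), 12.3 (positive at 2), 3.70 (cells of 500) and 3.43 (cells of 2000). Of the JupHigh likeness genes 6 of 10 stayed both without the 10 cells and at 2000 UMIs, and 4 list genes instead of 11 were 2-fold higher without the 10 cells. The alternatives without the 10 cells or without Zscan4d, and all those of the likeness and list counts, were added after seeing the data.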

Other observations

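Zscan4 transcripts were measured in 2i/LIF by both assays. In the 6 bulk libraries of Rex1GFPd2 cells they ranged from 0 to 193 per 1000000 recovered reads, and in the single-cell library of E14 cells they were at 0.966 CPM, with 3 Zscan4 columns. Line, assay and unit differ, so the values are set side by side and not compared.

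Chaf1a, which encodes a CAF-1 subunit, had 5 UMIs in wild-type serum/LIF plastic (2.48 CPM), against 38.1 in the gel, 36.5 in JupLow, 52.7 in JupHigh and 51.9 in 2i/LIF. In the same table Sox2 had no column. These values bear on any ratio against that table, and whether they come from how its genes were counted was not tested.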
